A study of Caenorhabditis elegans with 22 samples.

Results

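The 4 windows described here are 100 kb stretches of the Caenorhabditis elegans genome (build ce11), each named for 1 gene inside it. The ogt-1 window is chromosome III, 7100001 to 7200000, and the other 3 lie on chromosome V, the egl-9 window from 10400001 to 10500000, the des-2 window from 11400001 to 11500000 and the egl-10 window from 12400001 to 12500000. They were selected on a measured value, out of 1005 nuclear windows of this size: their ratio of Dam::EMR-1 to GFP::Dam was higher in cec-4 larvae than in wild type in these data. For these windows that comparison is therefore given as a description with no test, and tests of them are kept to libraries that it did not use. A window name stands for a stretch of DNA that holds 33 protein-coding genes (ogt-1), 28 (egl-9), 27 (des-2) or 31 (egl-10), and no RNA was measured.

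DNA adenine methyltransferase identification (DamID) was run on L1 larvae with Dam fused to emerin (Dam::EMR-1) or with free nuclear GFP::Dam, in 22 libraries of 8 groups. The backgrounds were the deletion allele cec-4(ok3124) on control RNAi (called cec-4), mrg-1 RNAi in cec-4(ok3124) larvae, mrg-1 RNAi in larvae wild type for cec-4, and wild type on control RNAi. Each fusion has 3 replicates in each background except mrg-1 RNAi alone, which has replicates 2 and 3 because the authors dropped 1 for technical reasons. All strains of a replicate were grown in parallel, so a replicate number pairs libraries. What all groups share also limits them: the hsp-16.41 promoter was used uninduced, a recombinase under the elt-2 promoter confined the fusions to the intestine, the mothers were fed control or mrg-1 bacteria for 66 h at 20 °C, and hatched larvae, pooled within a library, were kept for 2.5 h in liquid with Dam-negative bacteria. The cec-4 groups carry a single deletion allele. In pools of larvae, fewer cells with contact and less contact per cell cannot be told apart.

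Emerin sits in the inner nuclear membrane, so DNA methylated by Dam::EMR-1 lay near the nuclear periphery at some time, whereas GFP::Dam diffuses through the nucleus and methylates accessible DNA. CEC-4 is a chromodomain protein of the nuclear envelope that binds methylated histone H3 lysine 9 and anchors the heterochromatic chromosome arms. MRG-1 is a chromodomain protein of active chromatin. Chromosome centres, where all 4 windows lie, are rich in genes and usually poor in peripheral marks. The genes that give the windows their names have unrelated roles. OGT-1 attaches O-GlcNAc to nuclear and cytoplasmic proteins, EGL-9 is the prolyl hydroxylase that marks HIF-1 for destruction, DES-2 is a nicotinic acetylcholine receptor subunit that works with DEG-3, and EGL-10 is a regulator of G protein signalling that acts on the G protein alpha subunit GOA-1.

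Libraries held 2239914 to 18697376 nuclear reads, and the 3 wild-type Dam::EMR-1 libraries were the shallowest. The share of 1 kb bins with any read ran from 37.6% to 80.8%, and it was lowest in Dam::EMR-1 cec-4 replicate 1 and next lowest, at 46.3%, in Dam::EMR-1 mrg-1 RNAi replicate 3. As a check of the labelled tissue, GFP::Dam at 8 loci of intestine genes was set against the library's median 10 kb bin. It lay above that bin at 8 of 8, from 1.001 to 20.1 times, with a median of 4.31 times. The 3 hypodermis loci also all lay above it, with a median of 2.27. The median was 1.95 at 2 germline loci, 1.00 at 4 muscle loci (10.8 at unc-54) and 0.81 at 4 neuron loci. Loci of other tissues were thus not uniformly low. Reads were amplified by PCR and carry no molecular identifiers, so they are not counts of independent molecules. The SE and intervals given below come from the spread between replicate libraries.

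Wild type had little Dam::EMR-1 signal in the 4 windows, and in the cec-4 libraries that chose them Dam::EMR-1 reads were higher while GFP::Dam overlapped wild type. Values are in CPM, the reads of a window scaled to the total of nuclear reads in its library. They are shares of a library, so a higher value in 1 window can go with lower values elsewhere. Higher and lower are therefore relative here and give no absolute amount of contact. In the ogt-1 window Dam::EMR-1 gave 98.9, 98.2 and 70.3 CPM in cec-4 (809, 427 and 466 reads), against 10.4, 32.8 and 26.3 CPM in wild type (26, 101 and 59 reads). In mrg-1 RNAi cec-4 it gave 43.5, 107 and 52.6 CPM, and in mrg-1 RNAi 45.7 and 61.2 CPM. The cec-4 libraries all lay above the wild-type ones, but under mrg-1 RNAi the groups overlapped, with replicates 1 and 3 of mrg-1 RNAi cec-4 below the higher mrg-1 RNAi library. GFP::Dam averaged 664 ± 288 CPM in cec-4 and 791 ± 229 CPM in wild type, and 827 ± 242 CPM in mrg-1 RNAi cec-4 and 773 ± 100.1 CPM in mrg-1 RNAi (SD, n = 3 except 2 for mrg-1 RNAi). With under 110 CPM in every Dam::EMR-1 library, the ogt-1 window was the least methylated by emerin of the 4 in each library.

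In the egl-9 window Dam::EMR-1 gave 234, 268 and 253 CPM in cec-4 against 116, 110.3 and 100.5 CPM in wild type. Under mrg-1 RNAi it gave 154, 272 and 179.5 CPM in mrg-1 RNAi cec-4 against 96.2 and 95.8 CPM in mrg-1 RNAi. The groups did not overlap in either comparison, but how many of all windows separate in this way in Dam::EMR-1 alone was not counted. For the ratio of Dam::EMR-1 to GFP::Dam such separation was common. All cec-4 pairs lay above all wild-type pairs in 291 of 1004 windows. All mrg-1 RNAi cec-4 pairs lay above those of mrg-1 RNAi in 273. GFP::Dam was 359, 913 and 363 CPM in cec-4 against 732, 814 and 1062 CPM in wild type, so replicates 1 and 3 of cec-4 lay below all wild-type libraries and replicate 2 lay among them. This window had the largest GFP::Dam difference of the 4, and part of its ratio in cec-4 therefore came from a lower GFP::Dam value: on the fitted log2 scale Dam::EMR-1 differed by 1.28 ± 0.26 and GFP::Dam by −0.63 ± 0.26 (SE). A lower GFP::Dam was shared by the centre of V, whose 70 windows had a median change of −0.30. The fall of the egl-9 window was larger than most there, at rank 65 of 70 from the top. In cec-4 replicates 1 and 3 the median window of that centre had 362 and 379 CPM, close to the values of this window. In wild type the median window had 526, 816 and 800 CPM, below the egl-9 window in replicates 1 and 3.

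The des-2 window had the highest mean Dam::EMR-1 value of the 4 in each background. Dam::EMR-1 gave 537, 717 and 599 CPM in cec-4 against 109.6, 236 and 204 CPM in wild type, and 596, 662 and 650.1 CPM in mrg-1 RNAi cec-4 against 241 and 311 CPM in mrg-1 RNAi. Both cec-4 groups lay above both groups without the deletion, with no overlap, but the libraries of cec-4 and wild type are those that chose the window. The share of all windows with such a separation in Dam::EMR-1 was not counted. GFP::Dam averaged 567 ± 255 CPM in cec-4 and 732 ± 99.5 CPM in wild type, and 772 ± 154 CPM in mrg-1 RNAi cec-4 and 659 ± 165 CPM in mrg-1 RNAi (SD, n = 3 except 2 for mrg-1 RNAi), with overlap in each case.

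The egl-10 window gave 177, 229 and 307 CPM of Dam::EMR-1 in cec-4 against 66.8, 97.0 and 55.4 CPM in wild type. In mrg-1 RNAi cec-4 it gave 157, 213 and 273 CPM, against 89.8 and 67.0 CPM in mrg-1 RNAi. No library of a cec-4 group fell as low as any library of the group it was set against. However, cec-4 against wild type is the comparison that chose the window, and the share of all windows separated in this way was not counted. GFP::Dam was the lowest and least variable of the 4 windows, at 480.0 ± 107 CPM in cec-4 and 601 ± 71.2 CPM in wild type, and 518 ± 75.9 CPM in mrg-1 RNAi cec-4 and 562 ± 57.6 CPM in mrg-1 RNAi (SD, n = 3 except 2 for mrg-1 RNAi).

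**Figure D1:**
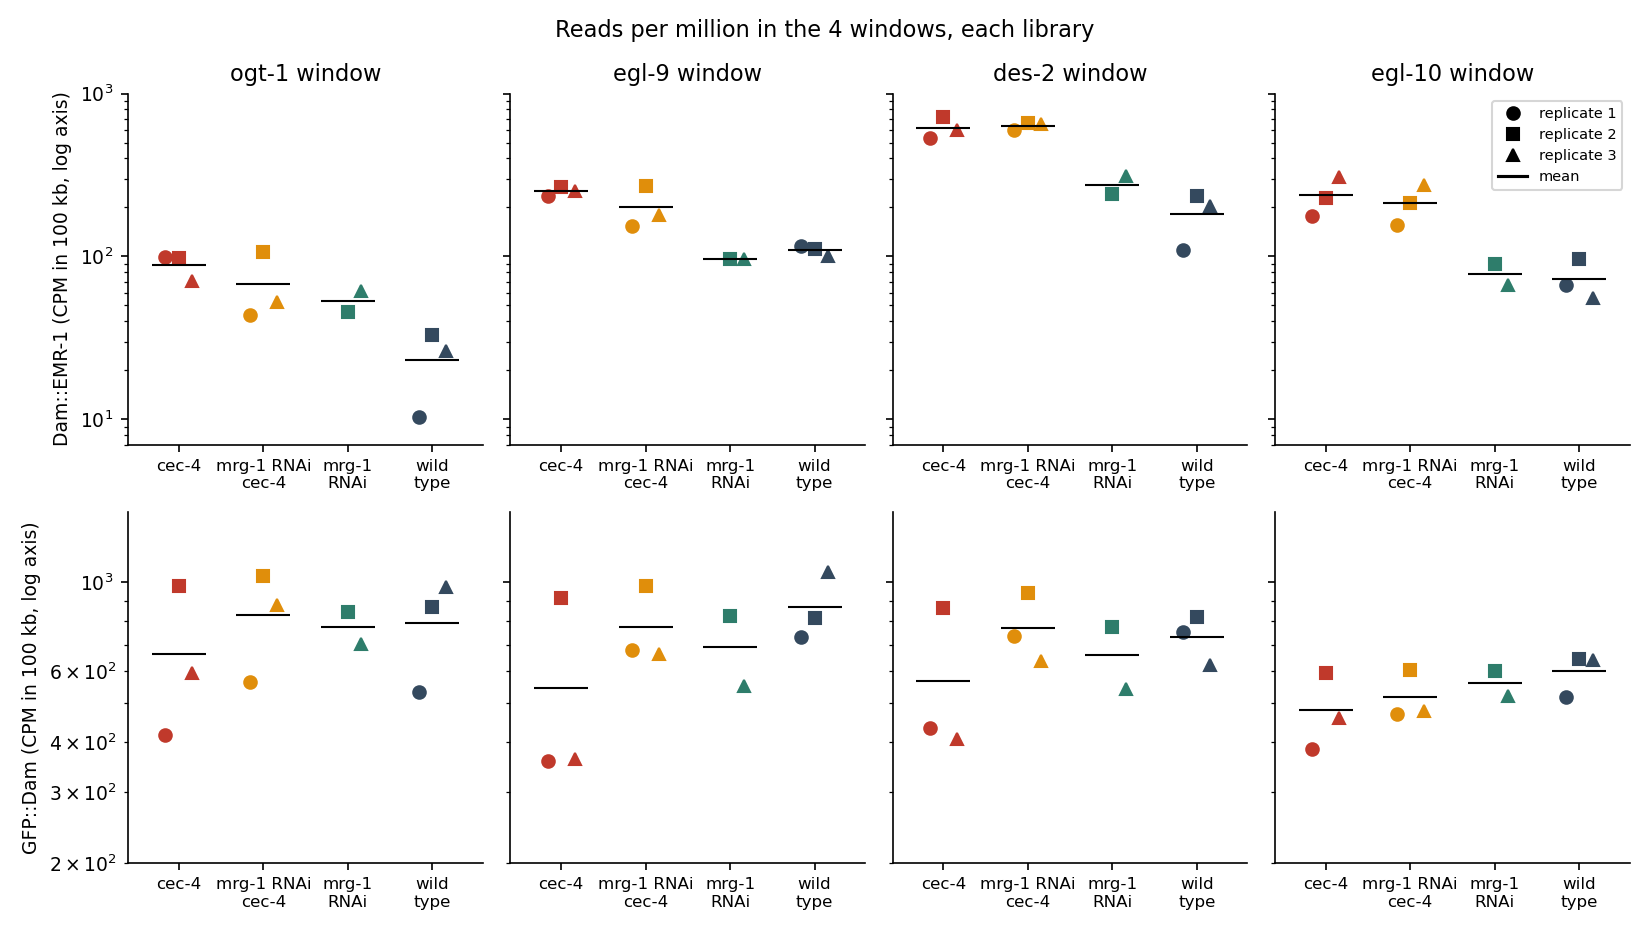
CPM in each of the 4 windows on a log axis, for Dam::EMR-1 (top) and GFP::Dam (bottom), with 1 point per library and a bar at the group mean. Dam::EMR-1 of the des-2 window reaches 717 CPM in cec-4, and the ogt-1 window stays under 110 CPM, while GFP::Dam overlaps between groups in every window.

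As ratios per replicate pair, taken as log2 of CPM plus 1, the ogt-1 window stood at −2.07, −3.31 and −3.06 in cec-4 pairs 1 to 3 and at −5.55, −4.69 and −5.15 in wild type. The same window stood at −3.67, −3.27 and −4.04 in mrg-1 RNAi cec-4 and at −4.18 and −3.50 in mrg-1 RNAi. The within-number differences were 3.49, 1.38 and 2.09 for cec-4 minus wild type, but 0.91 and −0.54 for mrg-1 RNAi cec-4 minus mrg-1 RNAi in numbers 2 and 3. The other 3 windows were higher with the deletion in both of these numbers under mrg-1 RNAi. The egl-9 window averaged −1.95 ± 0.15 in mrg-1 RNAi cec-4 and −2.80 ± 0.41 in mrg-1 RNAi, the des-2 window −0.26 ± 0.27 and −1.24 ± 0.62, and the egl-10 window −1.30 ± 0.42 and −2.84 ± 0.15 in the same order (SD, n = 3 and 2). The log2 values of the authors' deposited table, which average the ratio over replicates, ran from −5.15 (ogt-1, wild type) to 0.24 (des-2, cec-4).

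In the fit over all libraries, the cec-4 over wild type changes that chose the windows were log2 2.16 ± 0.52 for the ogt-1 window, 1.91 ± 0.37 for the egl-9 window, 2.11 ± 0.39 for the des-2 window and 1.96 ± 0.41 for the egl-10 window (SE). These hold ranks 1, 8, 2 and 4 of the 1004 windows tested, whose median change was 0.22. In this comparison 46 windows (4.58%) were called higher and 11 (1.10%) lower, and nothing is read from the members' own calls. The last window inside the call, that of hecd-1 on IV, changed by 1.05 ± 0.31, and the first outside it, that of vab-3 on X, by 1.26 ± 0.38, so the call follows the spread as well as the size.

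The comparison of mrg-1 RNAi cec-4 with mrg-1 RNAi used none of those libraries and asks whether the windows also differ by cec-4 genotype when MRG-1 is depleted. The egl-10 window was highest at log2 1.53 ± 0.46 (SE; 95% interval 0.58 to 2.47), the des-2 window stood at 0.87 ± 0.43 (−0.02 to 1.75), the egl-9 window at 0.80 ± 0.41 (−0.05 to 1.64) and the ogt-1 window at 0.13 ± 0.57 (−1.06 to 1.31). None of the 4 passed the test, with adjusted p of 0.256, 0.384, 0.413 and 0.960 in the same order (edgeR quasi-likelihood test, Benjamini-Hochberg over 1004 windows). Across the genome 0 windows (0%) were called higher and 2 (0.199%) lower, while 135 had an unadjusted p below 0.05. DESeq2 found 0 higher and 3 lower. A block for the replicate number gave 3 higher and 7 lower windows, and with it the egl-10 window stood at 1.49 with an adjusted p of 0.0569. The egl-10 window ranked 7 of 1004 by size and the ogt-1 window 512, beside a median over all windows of 0.15, which scaling by library size alone moved to 0.22. The ogt-1 value turned negative, to between −0.26 and −0.03, in 3 of the 10 fits that left out 1 library. Only the interval of the egl-10 window, of these 4, stays above 0. Whether the change differed between the RNAi conditions was not tested, since 1 of the comparisons chose the windows.

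**Figure D2:**
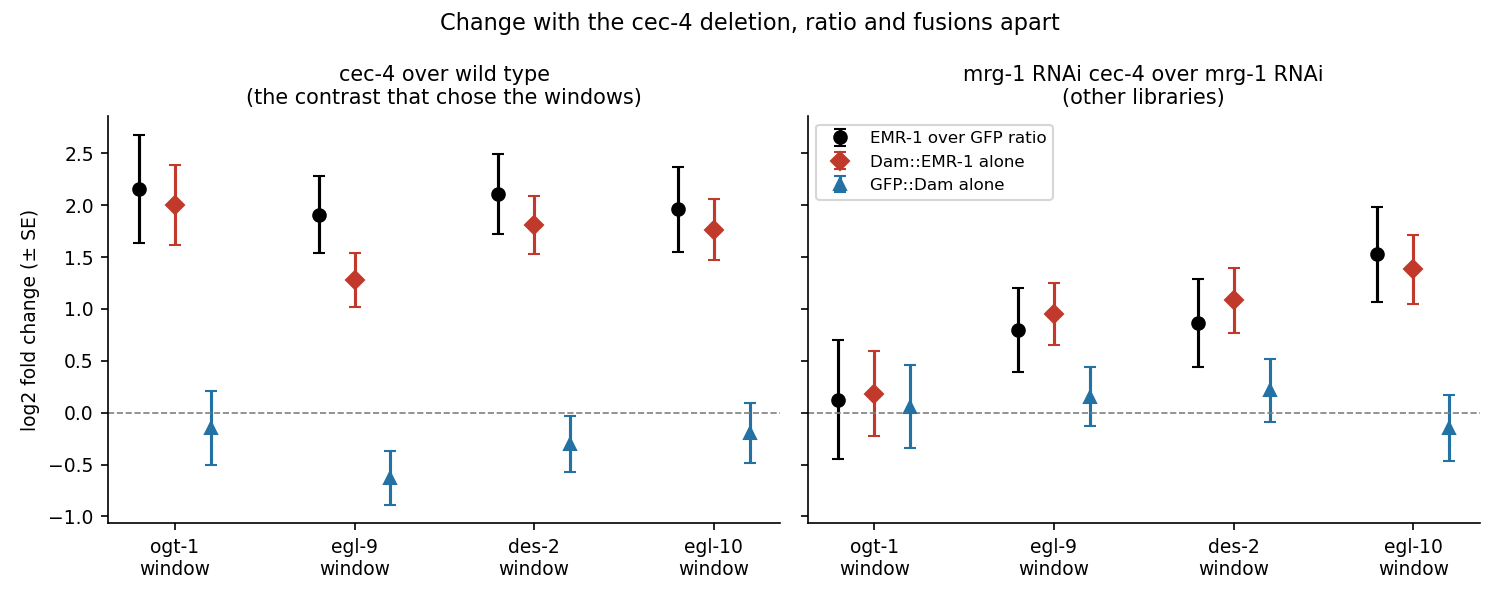
Fitted log2 change with the cec-4 deletion under control RNAi (left, the comparison that chose the windows) and under mrg-1 RNAi (right), for the ratio and for each fusion alone, with bars of 1 SE. On the right the ratio of the ogt-1 window stands at 0.13 and that of the egl-10 window at 1.53, and GFP::Dam alone stays between −0.14 and 0.22.

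Taken apart, the difference under mrg-1 RNAi lay in Dam::EMR-1. Dam::EMR-1 alone was higher in mrg-1 RNAi cec-4 than in mrg-1 RNAi by log2 1.38 ± 0.34 in the egl-10 window (SE; adjusted p = 0.0126, edgeR), 1.08 ± 0.31 in the des-2 window (0.0271) and 0.95 ± 0.30 in the egl-9 window (0.0361), all 3 called. In the ogt-1 window it differed by 0.18 ± 0.41 (0.803), which was not called. Of all windows 82 (8.17%) were called higher and 58 lower, so a call higher was uncommon but not rare. Central windows were higher in general, with a median of 0.92 over the 70 windows of the centre of V and 0.83 over the 46 of III. In its own centre the egl-10 window ranked 10 of 70, des-2 24 of 70, egl-9 32 of 70 and ogt-1 42 of 46. The egl-9 value thus stood near the median of its centre. GFP::Dam alone gave 0 calls (0%) in either direction by edgeR and values of 0.06 for the ogt-1 window, 0.16 for egl-9, 0.22 for des-2 and −0.14 for egl-10. The 3 Dam::EMR-1 calls depend on the scaling and on single libraries. They ended with scaling by library size alone (1.07, 1.20 and 1.45 for egl-9, des-2 and egl-10, with adjusted p of 0.122, 0.0647 and 0.0627) and when only the 2 groups set the spread (0.89, 1.03 and 1.32, with 0.274, 0.119 and 0.148). Without Dam::EMR-1 mrg-1 RNAi replicate 3 all 3 were lost, at 1.11, 1.46 and 1.32 (adjusted p = 0.120, 0.0652 and 0.108). Without replicate 2 of that group the egl-9 and des-2 windows stood at 0.81 and 0.78 (0.161 and 0.178), and without Dam::EMR-1 mrg-1 RNAi cec-4 replicate 3 at 0.97 and 1.00 (0.0599 for both). The egl-9 window also lost its call without Dam::EMR-1 mrg-1 RNAi cec-4 replicate 2, at 0.76 (0.119).

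Of the other 42 windows called higher in cec-4 over wild type, 41 had a positive change in mrg-1 RNAi cec-4 over mrg-1 RNAi, with a median of 0.80, against 599 of all 1004 windows and a median of 0.15. Central windows in general were alike in this, called or not, with 45 of 46 positive in the centre of III (median 0.74) and 67 of 70 in that of V (median 0.70). The 2 comparisons share no library. In the scatter of both changes the ogt-1 window lies lower under mrg-1 RNAi than most of the windows called under control RNAi.

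**Figure D3:**
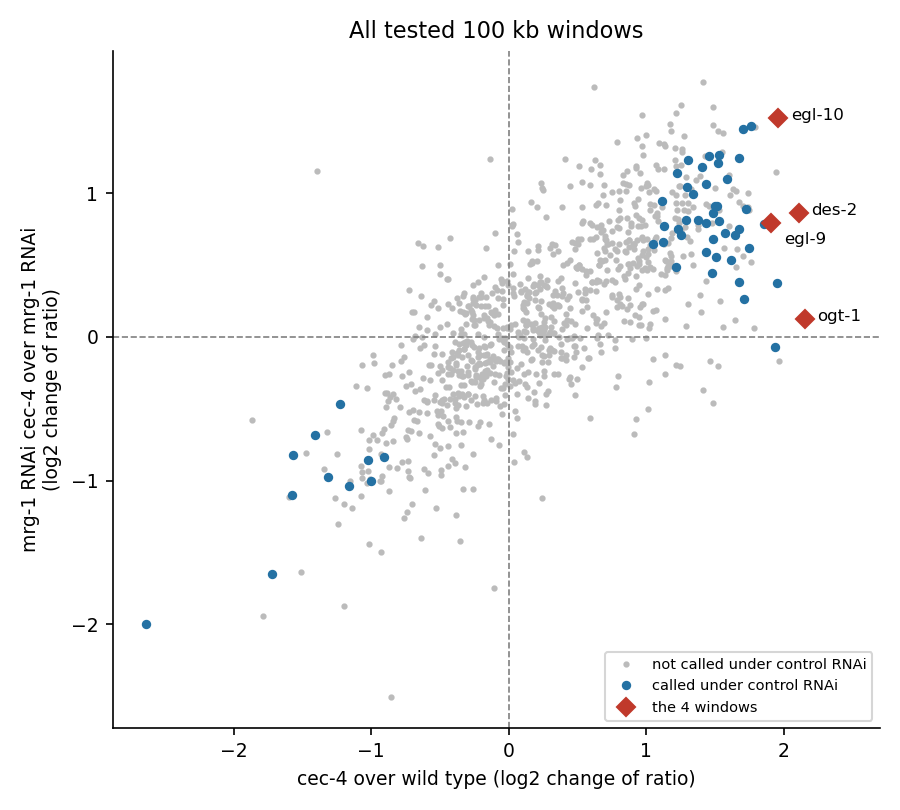
Each tested 100 kb window by its log2 change of ratio in cec-4 over wild type (horizontal) and in mrg-1 RNAi cec-4 over mrg-1 RNAi (vertical). The 4 windows lie at 1.91 to 2.16 on the horizontal axis by choice, and on the vertical axis they spread from 0.13 (ogt-1) to 1.53 (egl-10).

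The centres around the windows also differed by cec-4 genotype, so each pair value was set against the mean of its own centre, the middle of 3 equal lengths of the chromosome (46 windows on III and 70 on V). On this scale the egl-10 window stood at −0.80, −0.46 and 0.25 in mrg-1 RNAi cec-4 and at −0.89 and −1.15 in mrg-1 RNAi. The difference was 0.69 with no overlap (exact two-sided permutation p = 0.2, the smallest that 3 against 2 pairs gave). The permutations here did not match replicate numbers between the groups. The des-2 window differed by 0.13, the egl-9 window by −0.002 and the ogt-1 window by −0.60, with overlap in each (exact permutation p = 0.8, 0.8 and 0.4). The egl-9 value changed sign under 3 of the alternative settings and in single left-out pairs, so it has no direction. The centre of III rose by 0.78 between the same groups, and that of V by 0.85, with no overlap (exact permutation p = 0.2 each). Among the windows of its own centre the egl-10 window ranked 3 of 70 in the fitted change under mrg-1 RNAi, des-2 28 of 70, egl-9 31 of 70 and ogt-1 44 of 46. Non-overlapping groups with mrg-1 RNAi cec-4 higher were found in 273 of 1004 windows (27.2%), before the centre was taken off. The share after the centre was taken off was not counted, so whether the separation of the egl-10 window is unusual cannot be said.

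As levels in libraries the rule did not use, Dam::EMR-1 over GFP::Dam was lower in all 4 windows in mrg-1 RNAi, at log2 −3.85 ± 0.49 (ogt-1), −2.88 ± 0.38 (egl-10), −2.84 ± 0.34 (egl-9) and −1.23 ± 0.33 (des-2; SE, adjusted p = 0.00265, edgeR, and lower in the others). Windows lower in Dam::EMR-1 made up 36.4% of those tested. In mrg-1 RNAi cec-4 the ogt-1 window stood at −3.72 ± 0.40, egl-9 at −2.04 ± 0.27 and egl-10 at −1.36 ± 0.29, all called lower, among 35.0% of windows. The des-2 window, at −0.37 ± 0.27, was not called (adjusted p = 0.226). The egl-9 and egl-10 windows of mrg-1 RNAi were within their SE of each other. In the libraries that chose the windows the ratios were −3.02, −1.21, −0.02 and −1.19 in cec-4, against −5.17, −3.12, −2.13 and −3.15 in wild type, for ogt-1, egl-9, des-2 and egl-10. The ogt-1 window was the lowest of the 46 windows in the centre of III in wild type and again in mrg-1 RNAi cec-4.

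Comparisons that share libraries with the choice are given as values. Over wild type, mrg-1 RNAi alone differed by 1.33 ± 0.58 in the ogt-1 window, 0.89 ± 0.43 in des-2, 0.29 ± 0.41 in egl-9 and 0.27 ± 0.45 in egl-10 (SE). Over wild type, mrg-1 RNAi cec-4 differed by 1.45 ± 0.52 in ogt-1, 1.76 ± 0.38 in des-2, 1.08 ± 0.37 in egl-9 and 1.80 ± 0.41 in egl-10. Over cec-4, it differed by −0.70 ± 0.51, −0.35 ± 0.38, −0.83 ± 0.36 and −0.16 ± 0.40 in the same order of windows. The lowest wild-type value, at 26 reads in pair 1 of the ogt-1 window, enters both comparisons with wild type.

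Inside the windows, the reads were not spread evenly, and the rise was not always at the gene that names the window. Dam::EMR-1 reads over the ogt-1 gene itself (III, 7145842 to 7153797, covered by 9 bins of 1 kb) were few in every background, with 0, 15 and 10 in cec-4, 5, 13 and 1 in mrg-1 RNAi cec-4, 11 and 1 in mrg-1 RNAi, and 0, 5 and 4 in wild type. These counts overlap and are too low to show a change. GFP::Dam on the gene gave 1.20, 47.6 and 6.08 CPM in cec-4 (10, 291 and 114 reads). In wild type it gave 24.9, 40.6 and 73.7 CPM (205, 204 and 728 reads), with overlap. The bin of 10 kb with most reads in cec-4 differed between libraries. In replicate 1 it was the bin 60 kb from the window's start, on acs-4, a gene of the acyl-CoA synthetase family, with 536, 48 and 132 reads in replicates 1 to 3. In replicates 2 and 3 it was the bin at the window's start, that of cpg-2, a chondroitin proteoglycan gene, with 51, 121 and 238 reads in replicates 1 to 3, against 12, 26 and 1 in wild type. In mrg-1 RNAi cec-4 the cpg-2 bin had 13, 166 and 263 reads, against 50 and 0 in mrg-1 RNAi. In cec-4 replicate 1 a single 1 kb bin inside acs-4 (III, 7168001 to 7169000) held 506 of 809 reads (62.5%), against 27 of 427 in replicate 2 and 112 of 466 in replicate 3. The same bin had 2, 7 and 2 reads in wild type, and 4, 46 and 10 in mrg-1 RNAi cec-4 against 7 and 1 in mrg-1 RNAi. It was also the 1 kb bin with the most GFP::Dam on average in all 4 backgrounds. In an alternative chosen after seeing the data, which left this bin out of the window, the cec-4 over wild type change was 1.63 ± 0.55 in place of 2.16 ± 0.52 (SE).

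The egl-9 gene (V, 10468517 to 10476915) was likewise not where its window rose. Dam::EMR-1 over its 9 bins of 1 kb gave 29.6, 16.5 and 4.66 CPM in cec-4 against 33.5, 11.97 and 11.1 CPM in wild type, and 7.78, 16.3 and 9.48 CPM in mrg-1 RNAi cec-4 against 5.82 and 10.3 CPM in mrg-1 RNAi, with overlap in both. The 10 kb bin that starts 50 kb into the window held 52.1% of the window's Dam::EMR-1 in cec-4, 46.3% in mrg-1 RNAi cec-4, 31.4% in mrg-1 RNAi and 39.5% in wild type. No gene with a standard symbol overlaps it, and its leading 1 kb bins fall in F22E12.1, a gene singled out after its values were seen. That 10 kb bin averaged 93.5 CPM in mrg-1 RNAi cec-4 against 30.2 CPM in mrg-1 RNAi, and 131 CPM in cec-4 against 43.0 CPM in wild type. The bin of egl-9 itself differed by −0.28 ± 0.97 under mrg-1 RNAi and by 0.30 ± 0.86 under control RNAi (log2 ratio, SE). In this window the 1 kb counts exceeded the 10 kb and 100 kb counts by up to 48 reads per library, all within 1 stretch of 10 kb, 20 kb from the start. In the other 3 windows the sums were equal.

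In the des-2 window the gene itself was higher with the deletion, but most of the difference lay elsewhere in the window. Over the 7 bins of 1 kb on des-2 (V, 11415272 to 11421705), Dam::EMR-1 gave 118, 112 and 43.2 CPM in cec-4 against 14.0, 39.5 and 32.5 CPM in wild type, and 60.1, 109 and 88.7 CPM in mrg-1 RNAi cec-4 against 29.6 and 13.3 CPM in mrg-1 RNAi. The groups did not overlap under mrg-1 RNAi, nor under control RNAi, where the libraries are those that chose the window. How often other genes separate in this way was not counted. Of the window's difference in mean Dam::EMR-1 CPM, the gene held 17.9% under mrg-1 RNAi and 14.4% under control RNAi, on 7 of 100 bins. A single 1 kb bin (V, from 11417001) held 871 of 969, 293 of 490 and 226 of 287 reads of the gene in cec-4. It held 4 of 35, 90 of 122 and 58 of 73 in wild type. In mrg-1 RNAi cec-4 it held 157 of 201, 345 of 517 and 810 of 992, and in mrg-1 RNAi 83 of 117 and 19 of 67. GFP::Dam on des-2 averaged 60.3 ± 19.3 CPM in mrg-1 RNAi cec-4 and 47.9 ± 31.0 CPM in mrg-1 RNAi (SD, n = 3 and 2). By bin, 9 of 10 had a positive change in each comparison (share over all bins not counted). The lowest under mrg-1 RNAi was the second des-2 bin (−0.10 ± 0.94) and the highest under control RNAi was col-156 (3.08 ± 0.77; log2 ratio, SE). The partner gene deg-3 lies beside des-2 in the same 10 kb bin. Of the 4 windows it was the one in which every 10 kb bin had Dam::EMR-1 reads in every library. The zinc transporter family gene zipt-16, 60 kb in, led in mrg-1 RNAi with 75.9 CPM, against 135 CPM in mrg-1 RNAi cec-4. The collagen gene col-156 had the highest ratio in mrg-1 RNAi cec-4 (1.35 ± 0.54) and the astacin protease gene nas-19 the lowest (−3.38 ± 0.84; log2, SE).

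In the egl-10 window the fitted change was positive in 10 of 10 bins of 10 kb under mrg-1 RNAi (share over all bins not counted). The bin with most reads in mrg-1 RNAi cec-4 was that of atn-1 in replicates 1 and 2 and that of egl-10 in replicate 3. On egl-10 itself (V, 12453290 to 12463008, 11 bins of 1 kb), Dam::EMR-1 gave 6.88, 27.7 and 111 CPM in mrg-1 RNAi cec-4 against 10.4 and 1.19 CPM in mrg-1 RNAi. The groups overlapped, and replicate 3 of mrg-1 RNAi cec-4 stood far above the rest, with 1197 of the window's 3042 reads in the 1 kb bin from 12455001. In cec-4 the gene gave 16.1, 30.0 and 84.4 CPM, against 16.0, 11.3 and 3.12 CPM in wild type. The bin of atn-1, the alpha-actinin gene, averaged 60.8 CPM in mrg-1 RNAi cec-4 against 17.5 CPM in mrg-1 RNAi, and 93.3 CPM in cec-4 against 18.997 CPM in wild type. Inside it, the 1 kb bin from 12477001, with no protein-coding gene assigned, averaged 64.6 CPM in cec-4. That 1 kb bin held 532 of 1452, 149 of 997 and 630 of 2033 window reads in cec-4, and 23 of 167, 42 of 299 and 4 of 124 in wild type. It held 174 of 522, 169 of 1007 and 173 of 3042 in mrg-1 RNAi cec-4, and 49 of 354 and 28 of 337 in mrg-1 RNAi. In mrg-1 RNAi replicate 3 a single 1 kb bin (V, 12491001 to 12492000), in the 10 kb bin of the innexin gene inx-11, held 213 of 337 reads (63.2%), against 2 of 354 in replicate 2. In mrg-1 RNAi cec-4 the same bin held 6, 22 and 679 reads. Without this bin, an alternative chosen after seeing the data, the change under mrg-1 RNAi was 1.87 ± 0.52 in place of 1.53 ± 0.46 (SE; adjusted p = 0.251, edgeR). The same alternative took the top 1 kb bin from the other windows and gave 0.78 for des-2, 0.66 for egl-9 and 0.02 for ogt-1, none called, and ended the call of Dam::EMR-1 alone in the egl-9 window (0.84, adjusted p = 0.0912).

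**Figure D4:**
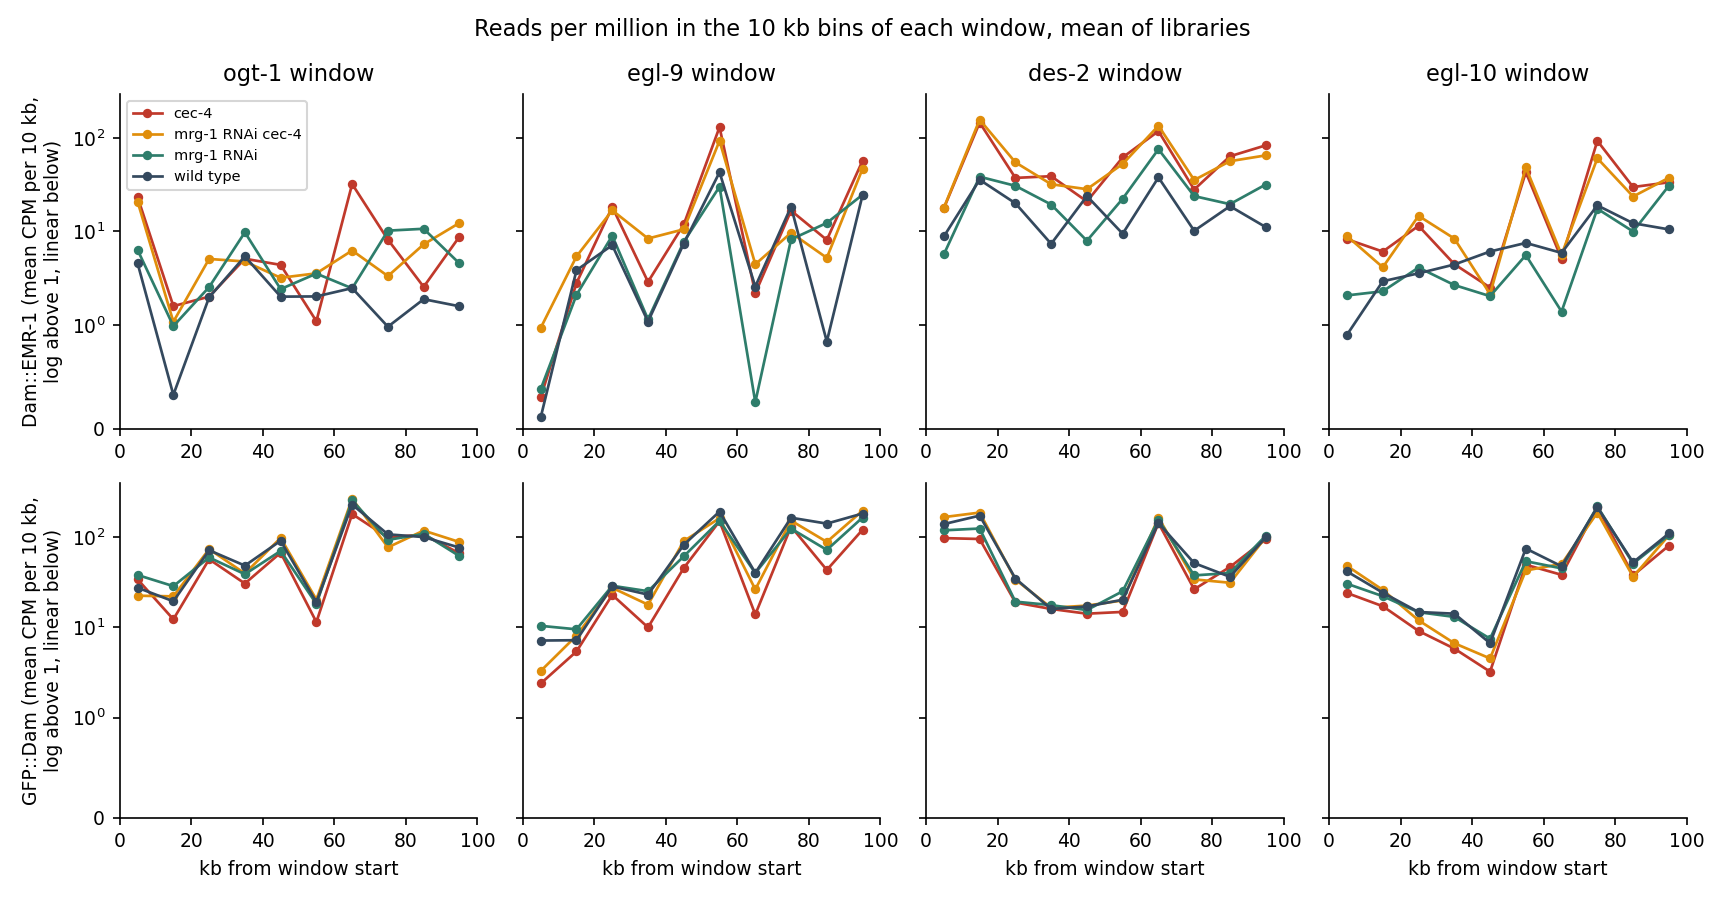
Mean CPM in the 10 kb bins of each window against the distance from the window's start, for Dam::EMR-1 (top) and GFP::Dam (bottom), with 1 line per background on an axis that is log above 1 and linear below. The mean Dam::EMR-1 peaks in cec-4 lie in the first acs-4 bin of the ogt-1 window and 50 kb in for egl-9 (131 CPM). In the other windows they lie in the first des-2 bin (146 CPM) and the first atn-1 bin (93.3 CPM). The acs-4 bin has 65.5 CPM in replicate 1 and 11.04 and 19.9 CPM in replicates 2 and 3, where the cpg-2 bin is higher. GFP::Dam is highest in the same acs-4 and atn-1 bins of the ogt-1 and egl-10 windows in all 4 backgrounds.

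At 10 kb no single bin passed the test under mrg-1 RNAi, and 0 of 9960 bins in the genome (0%) were called, with 304 (3.05%) under an unadjusted p of 0.05. Of the 40 bins in the 4 windows 4 were under that p, and 32 had a positive change. These bins are parts of 4 windows, not independent cases, and the share of positive bins over the genome was not counted. At 100 kb, 45 of 46 windows were positive in the centre of III and 67 of 70 in that of V. The median of the 40 bins was 1.00 against 0.17 over all bins, arms included. The highest of the 40 was the bin of chw-1 in the egl-9 window, at 4.89 ± 2.23. It had 2 Dam::EMR-1 reads in mrg-1 RNAi and 49 in mrg-1 RNAi cec-4. The first egl-10 bin stood at 3.86 ± 1.44 (SE). The bin of ncx-5, a sodium and calcium exchanger gene, was lowest at −1.94 ± 2.02. In mrg-1 RNAi cec-4 the bin with the highest ratio in the ogt-1 window was that of cpg-2 (−0.16 ± 0.97), and in the egl-10 window that of pals-37 (0.35 ± 1.21). The lowest were the first acs-4 bin in the ogt-1 window (−5.78 ± 1.05), ncx-5 in the egl-9 window (−4.28 ± 1.44) and the second egl-10 bin in the egl-10 window (−3.34 ± 0.87; log2, SE).

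The windows did not stand alone on their chromosomes. Within 500 kb on either side, every neighbouring window was higher in cec-4 over wild type, by 0.92 to 1.79 (not tested), and the 4 windows were the local maxima on which they were chosen. Under mrg-1 RNAi the egl-10 window was exceeded by the che-11 window 300 kb before it (1.78 ± 0.50), and the ogt-1 window lay below both of its next neighbours, lgc-38 (1.00 ± 0.37) and psd-1 (1.01 ± 0.64; SE).

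**Figure D5:**
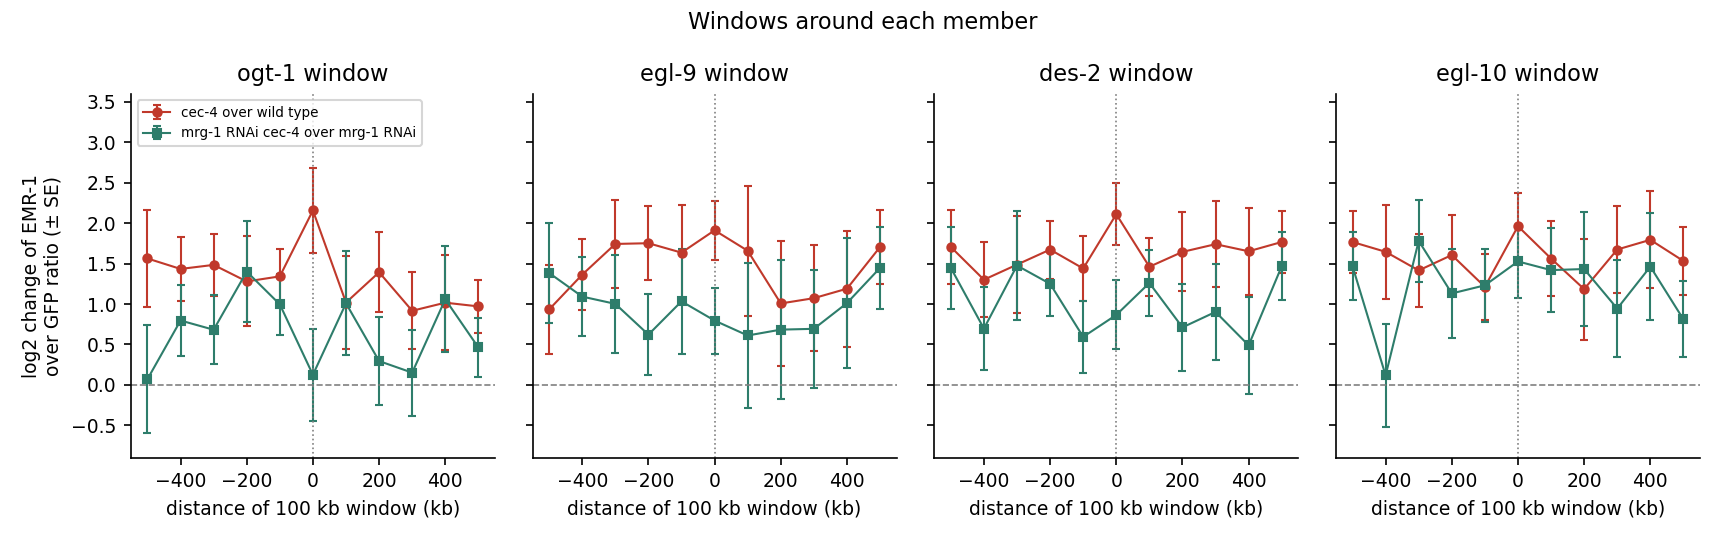
Log2 change of the Dam::EMR-1 over GFP::Dam ratio in the windows within 500 kb of each of the 4, for cec-4 over wild type and for mrg-1 RNAi cec-4 over mrg-1 RNAi, with bars of 1 SE. The control comparison peaks at distance 0 by choice, and under mrg-1 RNAi the ogt-1 window dips to 0.13 between neighbours at 1.00 and 1.01.

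Over the 11 pairs of libraries, which share depth and scaling, the windows most like each member lay in chromosome centres. The 11 pairs include the cec-4 and wild-type pairs that chose the members. The correlations are therefore in part fixed by that choice and are given as a description. They were those of frm-3, ten-1 and lntl-1 for the ogt-1 window (Pearson r of 0.92, 0.92 and 0.91), pptr-2, glo-4 and daf-11 for egl-9 (0.97, 0.93 and 0.92), nhr-97, nhl-1 and mig-39 for des-2 (0.94 each) and mig-39, ccch-1 and clec-223 for egl-10 (0.96, 0.95 and 0.95). Among themselves the 4 windows correlated at 0.72 (ogt-1 and egl-10) to 0.89 (egl-9 and egl-10), so each had other windows more like it than the other members.

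Windows of other genes from the pathways of the naming genes are given by counts and medians. Over all windows the calls higher were 0% under mrg-1 RNAi and 4.58% under control RNAi, with medians of 0.15 and 0.22, so a count of 0 under mrg-1 RNAi says nothing about a list. Of 5 other windows of O-GlcNAc cycling and hexosamine genes, 0 were called in either comparison, with medians of 1.03 under mrg-1 RNAi and 1.16 under control RNAi, both above those of all windows. The O-GlcNAcase gene oga-1, which removes what OGT-1 attaches, stood at 1.19 ± 0.48 and 1.22 ± 0.43 in the same order (SE), and 4 of these 5 windows lie in centres. Of 10 windows of HIF-1 pathway genes, 3 in centres, 0 were called, with medians of 0.08 and 0.10. Of 13 windows of acetylcholine receptor genes, 7 in centres, 0 were called under mrg-1 RNAi (median 0.31). In cec-4 over wild type 2 were higher (median 0.54). They hold unc-29, a receptor subunit gene of body muscle, at 1.73 ± 0.38, and ric-3, a chaperone gene for these receptors, at 1.67 ± 0.49 (log2, SE). Of 15 windows of G protein signalling genes, 6 in centres, 0 were called, with medians of 0.34 and 0.67. Medians over the centres of III and V were 0.74 and 0.70 under mrg-1 RNAi, and 1.02 and 1.19 under control RNAi. The lists hold different shares of central windows, so their medians are not compared with each other. The window of goa-1, the target of EGL-10, stood at 0.34 ± 0.74 under mrg-1 RNAi and 0.93 ± 0.67 under control RNAi (SE).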

How the data were processed

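The count tables deposited by the authors hold reads in bins of 1, 10 and 100 kb. The build is ce11 per the submitters' processing notes, and the aligner is not given in the sources used here. The authors' deposited log2 tables give a mean ratio of both fusions per background and were used as values only. Members and gene lists were chosen with earlier results of these data known. Counts of nuclear windows (1004 of 1005 passed the filter on low counts) were fitted in 1 model over all 22 libraries with edgeR 4.0.16 (TMM, quasi-likelihood) in R 4.3.3, with a threshold of 0.05 on the Benjamini-Hochberg adjusted p. Intervals of 95% use the t quantile at the degrees of freedom of the fit. Alternatives were DESeq2 1.42.0, no filter, library size as the scaling, a replicate block, a fit of the compared groups alone, single libraries left out and, chosen after seeing the data, the top 1 kb bin left out. Pair values are log2 ratios of CPM plus 1, tested by exact permutation between groups without matching replicate numbers. Numbers pair libraries because strains were grown in parallel per the labels. As a check, deviations correlated above 0.1 in 15 of 15 GFP::Dam and 13 of 15 Dam::EMR-1 comparisons of the same number. Windows and bins take the name of the symbol-bearing protein-coding gene with most overlap (annotation WBcel235). The fits were tested on simulated data. No density of GATC sites was corrected for, and no sequence is printed, since no genome sequence was used here.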

Additional observations from a re-analysis of the deposited data

How the results depend on the processing

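In the ratio under mrg-1 RNAi, 2 windows of 100 kb were called in either direction. Scaling by library size alone and the fit of the compared groups alone gave 0 each, the replicate block gave 10, and leaving out 1 library gave 0 to 8. For cec-4 over wild type the 57 calls became 0 with library size alone, 86 with DESeq2, 253 with the replicate block, 28 with the compared groups alone and 1 to 144 without 1 library. For Dam::EMR-1 alone the 140 calls became 16, 296 and 20 with library size, replicate block and the compared groups alone, and 17 to 140 without 1 library. Levels gave 586 to 644 calls in mrg-1 RNAi and 633 to 674 in mrg-1 RNAi cec-4 without 1 library, and the 10 kb bins 0 to 16.

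The ratio of the ogt-1 window under mrg-1 RNAi ran from −0.26 to 0.54 when 1 library was left out, and was −0.19 without Dam::EMR-1 mrg-1 RNAi replicate 2 and −0.03 without GFP::Dam mrg-1 RNAi cec-4 replicate 1. Its Dam::EMR-1 value ran from −0.21 to 0.59 (−0.14 without Dam::EMR-1 mrg-1 RNAi replicate 2), and its GFP::Dam value from −0.044 to 0.21, with −0.0078 and −0.0098 among them. The ratio ran from 0.61 to 0.95 for egl-9, 0.57 to 1.24 for des-2 and 1.23 to 1.71 for egl-10. Set against the centre, the pair difference of egl-9 was 0.62 relative to the genome mean, 0.0083 from 1 kb sums and 0.17 with the replicate block. Without 1 pair it ran from −0.27 to 0.26 for egl-9, −0.29 to 0.55 for des-2 (−0.06 among them), −0.83 to −0.37 for ogt-1 and 0.39 to 0.92 for egl-10. The causes were not tested. The 2 mrg-1 RNAi replicates and the few Dam::EMR-1 reads of the ogt-1 window, 26 to 101 in wild type, limit what could be detected.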
